A study of Mus musculus with 2 samples.

Results

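The 10 genes that encode the TGF-beta ligands (Tgfb1, Tgfb2, Tgfb3), their receptors (Tgfbr1, Tgfbr2, Tgfbr3) and the latent TGF-beta binding proteins (Ltbp1, Ltbp2, Ltbp3, Ltbp4) were read across the cell classes of GFP+ cells from denervated mouse muscle. They were chosen by name, among 32287 features in the matrix, and all 10 were found. The cells came from the tibialis anterior and gastrocnemius of 2-month-old male S100GFPtg mouse muscle, in which the S100B promoter drives green fluorescent protein, 7 days after sciatic nerve crush. The sample titles give these animals as WT. Live cells carrying the reporter made up 1 droplet library with 3′ tags, and cells without it a second one. The methods speak of pooled male animals and the series text of a single crushed mouse, so the number of animals is not certain, and no uncrushed library entered here. With 1 library of each kind there was no replicate, and no test was possible. The second library's counts were not used here. Each interval below is a 95% interval that covers only the error of counting UMIs, or cells for shares of cells.

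TGF-beta is secreted in a latent form, held inactive by its own cleaved propeptide. Latent binding proteins tie that complex to fibrillin microfibrils in the matrix, from which integrins and proteases release the ligand. Free ligand joins the type II receptor (Tgfbr2) and the type I receptor (Tgfbr1), which signal through SMAD proteins, and betaglycan (Tgfbr3) is a co-receptor known above all for capturing TGF-beta 2. In muscle the pathway is known for its action on fibroblasts and matrix after injury, and in nerve for its action on Schwann cells.

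The positions come from RefSeq on GRCm38.p6. Tgfb1 lies on the plus strand at chr7:25687002-25705077 and Tgfb2 on the minus strand at chr1:186622787-186709697. Ltbp1 lies on the plus strand at chr17:75005480-75392512 and Ltbp4 on the minus strand at chr7:27305140-27339720. The 150 bases before annotated starts of these 4 genes are shown. The reason is that Tgfb1 and Tgfb2 were highest in different cell classes, and that Ltbp1 and Ltbp4 were ordered differently across the fibroblasts. Of the 10 genes, 8 had at least 1 start among the 32851 RefSeq windows. Tgfb3 and Tgfbr3 had none. Each sequence runs 5′ to 3′ on the gene's strand, and capitals mark a TATA box (TATAAA), a GC box (GGGCGG), a cyclic AMP response element (CRE, TGACGTCA), an E-box (CACGTG), an AP-1 site (TGANTCA) or a SMAD-type element (CAGAC), searched on both strands.
Tgfb1, chr7:25686852-25687001: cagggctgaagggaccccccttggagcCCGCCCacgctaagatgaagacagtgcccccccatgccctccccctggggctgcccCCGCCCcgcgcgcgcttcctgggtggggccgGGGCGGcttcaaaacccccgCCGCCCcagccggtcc
Tgfb2, downstream start, chr1:186705990-186706139: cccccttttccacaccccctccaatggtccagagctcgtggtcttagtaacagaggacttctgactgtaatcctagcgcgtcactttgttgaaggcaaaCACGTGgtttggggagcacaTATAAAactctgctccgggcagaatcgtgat
Ltbp1, upstream start, chr17:75005379-75005528: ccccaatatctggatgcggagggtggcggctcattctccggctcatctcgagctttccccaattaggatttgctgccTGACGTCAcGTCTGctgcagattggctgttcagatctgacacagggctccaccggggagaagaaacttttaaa
Ltbp1, downstream start, chr17:75178631-75178780: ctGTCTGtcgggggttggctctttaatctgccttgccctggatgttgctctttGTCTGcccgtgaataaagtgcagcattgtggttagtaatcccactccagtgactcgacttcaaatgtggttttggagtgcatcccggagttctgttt
Ltbp4, upstream start, chr7:27337613-27337762: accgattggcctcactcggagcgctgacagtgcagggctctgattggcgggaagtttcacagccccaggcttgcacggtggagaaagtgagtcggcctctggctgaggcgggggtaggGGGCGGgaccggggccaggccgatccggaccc
Ltbp4, downstream start, chr7:27333649-27333798: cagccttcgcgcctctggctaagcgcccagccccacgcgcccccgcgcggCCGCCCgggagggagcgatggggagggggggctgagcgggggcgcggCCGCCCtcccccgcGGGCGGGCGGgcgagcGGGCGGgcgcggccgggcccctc
The Tgfb1 window held 4 GC boxes and was 76.0% G and C, against a median of 54.0% over all windows. The Tgfb2 window, both Ltbp4 windows and the downstream Ltbp1 window lie inside the annotated gene, downstream of its outermost start, and the upstream Ltbp1 window runs past the annotated start. The Tgfb2 window held a TATA box, 31 to 26 bases before its start, and an E-box, and was 51.3% G and C. The upstream Ltbp1 window held a CRE and a SMAD-type element, and the downstream one 2 SMAD-type elements. The Ltbp4 windows shown held 1 and 5 GC boxes, of which a pair overlapped in the downstream window, and no window shown held an AP-1 site. A further Ltbp4 window, at chr7:27333664-27333813, overlaps the downstream one, held 5 GC boxes as well and is not shown. Over all windows, the share with a match was 7.57% for the TATA box, 28.6% for the GC box, 1.36% for the CRE, 4.30% for the E-box, 4.24% for the AP-1 site and 27.7% for the SMAD-type element. A match describes the letters of a window and is not a shown site, and 3′ tags do not tell which start a transcript used.

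Of 36400 barcodes, 8701 had at least 5000 UMIs (unique molecular identifiers, counted transcripts), over 200 genes and under 10% mitochondrial counts, with a median of 11624 UMIs. Cells were put in a class when enough UMIs of its markers were present, none of which is a member. The 8 classes with at least 30 cells were monocyte/macrophage-like (5485 cells), mesenchymal-like (1258), tenocyte-like (401), dendritic-like (311), Schwann-like (73), endothelial-like (41), smooth muscle and pericyte-like (47), and satellite cell and myoblast-like (162). Another 544 barcodes passed the gates of more than 1 class and were left out, 342 passed none, and the rest fell in smaller classes. In 7 of the 8 classes each of the class's own markers was detected. In the satellite cell and myoblast-like class 2 of 7 were at 0. The gates asked for these markers, so their detection does not check the class names. Transcripts of the reporter were at 621 CPM in Schwann-like, 463 in monocyte/macrophage-like, 122 in mesenchymal-like and 67.8 in satellite cell and myoblast-like cells, where CPM is the UMIs of a gene per 1000000 UMIs of the class. In endothelial-like cells they were at 5.25 CPM, under the 7.87 CPM that 3 counts stand for there. In satellite cell and myoblast-like cells, summed mesenchymal markers were at 1328 CPM and smooth muscle and pericyte markers at 1086 CPM. These were 4.21% and 4.15% of the levels in those classes, and both exceeded the class's own marker sum of 979 CPM. The part of such RNA in this class's member levels was not tested. Median depth per class lay between 6765 UMIs (endothelial-like) and 15820 UMIs (mesenchymal-like). Of the deep barcodes, 84 had a sequence that also occurs in the GFP- library, and leaving them out changed none of the 33 calls given below.

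The ligands were highest in different classes. Tgfb1 was highest in the immune classes, Tgfb2 in Schwann-like, mesenchymal-like and satellite cell and myoblast-like cells, and Tgfb3 in smooth muscle and pericyte-like and tenocyte-like cells.  Tgfb1 was at 273 CPM (interval 269 to 277) in monocyte/macrophage-like, 137 in dendritic-like and 129 in endothelial-like cells, and at 34.7 to 57.4 CPM in the other 5 classes. The dendritic-like and endothelial-like values did not differ beyond their counting error, and the lowest value, in mesenchymal-like cells, was 7.88-fold below the highest. Of the 20491 Tgfb1 UMIs in the 8 classes, 91.0% were in monocyte/macrophage-like cells, which were also the most numerous.

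Tgfb2 was at 227 CPM (interval 192 to 266) in Schwann-like, 215 (208 to 221) in mesenchymal-like cells. The satellite cell and myoblast-like level was 203 CPM (183 to 225). Neighbors among these 3 classes did not differ beyond counting error. The Schwann-like level rested on few cells, since 50.6% of its 154 Tgfb2 UMIs were in 5 of the 73 cells. Lower levels were found in smooth muscle and pericyte-like (132 CPM), tenocyte-like (117 CPM) and endothelial-like cells (23.6 CPM). In monocyte/macrophage-like cells Tgfb2 was at 2.29 CPM and in dendritic-like cells at 0.575 CPM, on 156 and 3 UMIs.

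Tgfb3 was at 104 CPM (interval 77.7 to 136) in smooth muscle and pericyte-like and 81.2 CPM (73.5 to 89.5) in tenocyte-like cells, which did not differ beyond counting error. Mesenchymal-like cells followed with 41.7 CPM and satellite cell and myoblast-like cells with 22.6 CPM. The Schwann-like value of 11.8 CPM rested on 8 UMIs. The level was 1.23 CPM in monocyte/macrophage-like cells.

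Of the receptors, Tgfbr1 varied least between classes and Tgfbr3 most. Tgfbr1 was highest in tenocyte-like cells at 173 CPM (interval 162 to 185), and lay between 91.3 and 117 CPM in 5 classes, among which no neighbors in the order differed beyond counting error. It was at 56.0 CPM in smooth muscle and pericyte-like and 44.6 CPM in dendritic-like cells, so that the highest and lowest class stood 3.88-fold apart (interval 3.35 to 4.50).

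Tgfbr2 was at 299 CPM (interval 291 to 306) in mesenchymal-like, 223 (219.6 to 227) in monocyte/macrophage-like, 205 (162 to 255.5) in endothelial-like and 166 (155 to 177) in tenocyte-like cells. It was at 91.3 CPM in Schwann-like and 53.4 CPM in satellite cell and myoblast-like cells, and lowest in dendritic-like cells at 28.7 CPM. The type II receptor was therefore above 200 CPM in the largest immune and the largest stromal class alike, and 10.4-fold below the mesenchymal-like level in dendritic-like cells (interval 8.84 to 12.3).

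Tgfbr3 was at 686 CPM (interval 663 to 709) in tenocyte-like, 442 (432 to 451) in mesenchymal-like cells. Satellite cell and myoblast-like cells followed with 365 CPM (338 to 394) and endothelial-like cells with 312 CPM (259 to 374). Of the endothelial-like UMIs, 61.3% for Tgfbr3 and 55.1% for Tgfbr2 were in 5 of the 41 cells. Schwann-like and smooth muscle and pericyte-like cells were at 106 and 96.0 CPM. Both immune classes were under 5 CPM, with 3.75 in monocyte/macrophage-like and 1.92 in dendritic-like cells. Thinned to 5000 UMIs per cell, a Tgfbr3 UMI was found in 89.3% of tenocyte-like cells and in 1.68% of monocyte/macrophage-like cells (97.3% and 3.26% unthinned, at median depths of 11191 and 11284 UMIs).

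Ltbp1, Ltbp3 and Ltbp4 were higher in each of the 6 non-immune classes than in both immune ones, in different orders, though Ltbp3 in endothelial-like cells rested on 5 UMIs (interval 4.26 to 30.6 CPM), and Ltbp2 was sparse. Ltbp1, which binds all isoforms of the ligand, was at 348 CPM (interval 340 to 356) in mesenchymal-like, 242 in smooth muscle and pericyte-like, 209 in satellite cell and myoblast-like and 202 in tenocyte-like cells. Ltbp4, a binder also known for its part in elastic fibers, was at 433 CPM (interval 369.5 to 504) in endothelial-like, 361 (353 to 369) in mesenchymal-like, 222 in Schwann-like and 198 in satellite cell and myoblast-like cells. The classes with much of 1 of these genes were not always those with much of the other. Smooth muscle and pericyte-like cells had 242 CPM of Ltbp1 and 30.0 CPM of Ltbp4, and endothelial-like cells 36.7 and 433 CPM. Thinned, an Ltbp1 UMI without Ltbp4 was seen in 57.4% of smooth muscle and pericyte-like cells and in 0 of 41 endothelial-like cells, and Ltbp4 without Ltbp1 in 2.13% and 78.0%. In monocyte/macrophage-like cells the thinned shares with Ltbp1 and with Ltbp4 were 0.984% and 1.11%.

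Ltbp3, a binder known from bone and tooth, was at 141 CPM (interval 131 to 152) in tenocyte-like, 93.9 in mesenchymal-like, 71.1 in satellite cell and myoblast-like and 70.7 in Schwann-like cells. Ltbp2, a microfibril protein that does not bind latent TGF-beta, had 219 UMIs in all 8 classes and reached 14.8 CPM in tenocyte-like cells and 5.29 CPM in mesenchymal-like cells. It had no UMI in Schwann-like and endothelial-like cells, where 3 counts would stand for 4.42 and 7.87 CPM. These counts were too few to order the remaining classes.

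**Figure D1:**
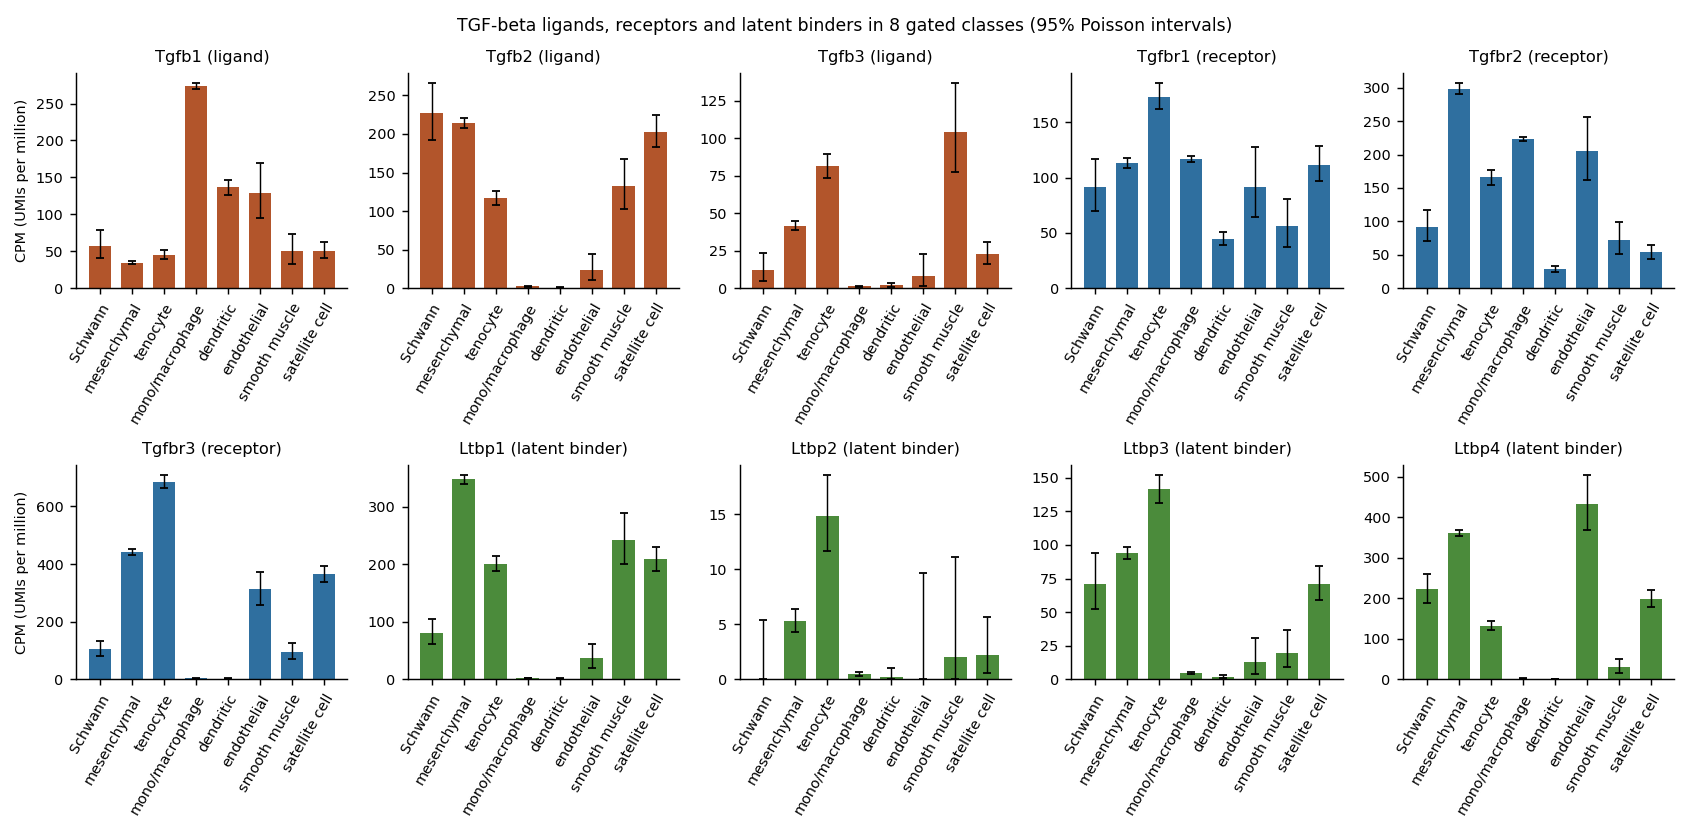
Levels of the 10 genes in the 8 classes, 1 panel per gene with its own linear axis from 0 in CPM; bars are pooled values of the class and lines are 95% Poisson intervals. Tgfb1 is tallest in monocyte/macrophage-like cells at 273 CPM, where Tgfb2, Tgfb3, Tgfbr3 and the latent binders are under 5 CPM.

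The 2 largest classes of the sort were set against each other to see which genes lie on the immune and which on the stromal side. Of 9 members with at least 10 CPM in either class, 1 was at least 2-fold higher in monocyte/macrophage-like cells, 6 were lower and 2 were within 2-fold. Over all 9519 genes tested, 42.3% were called by the same rule, 18.8% higher and 23.6% lower. Tgfb1 was the higher member, by a log2 ratio of 2.98 (interval 2.87 to 3.09). The lower members were Tgfb2 (log2 ratio -6.55), Tgfb3 (-5.08), Tgfbr3 (-6.88), Ltbp1 (-7.33), Ltbp3 (-4.30) and Ltbp4 (-7.31). Both signaling receptors were within 2-fold, with log2 ratios of 0.04 (interval -0.02 to 0.11) for Tgfbr1 and -0.42 (-0.46 to -0.38) for Tgfbr2. The summed mesenchymal markers stood in monocyte/macrophage-like cells at 0.280% of their mesenchymal-like level, with 0 of 8 markers at 0. Beside this, Ltbp1 was at 0.620% of its mesenchymal-like level, Ltbp4 at 0.630%, Tgfbr3 at 0.850%, Tgfb2 at 1.07%, Tgfb3 at 2.95% and Ltbp3 at 5.06%. With the RNA of other classes subtracted in proportion to their markers, the log2 ratios were -6.99 for Tgfb2, -5.23 for Tgfb3, -7.45 for Tgfbr3, -8.20 for Ltbp1, -4.39 for Ltbp3 and -8.16 for Ltbp4. Over all the alternative settings the log2 ratio lay between -6.99 and -5.54 for Tgfb2, -5.23 and -4.67 for Tgfb3, -7.45 and -5.73 for Tgfbr3, -8.20 and -6.24 for Ltbp1, -4.45 and -4.01 for Ltbp3 and -8.16 and -6.07 for Ltbp4. The 7 calls were kept in each setting, while Tgfbr1 (-0.05 to 0.18) and Tgfbr2 (-0.49 to -0.27) remained within 2-fold.

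Schwann-like cells were compared with both classes, the cells the study set out to describe. Against mesenchymal-like cells, 9 members were tested, 0 were higher, 4 were lower and 5 were within 2-fold, where 43.5% of 10066 tested genes were called, 26.2% higher and 17.3% lower. The lower ones were Tgfb3, Tgfbr2, Tgfbr3 and Ltbp1, by 3.54-fold, 3.27-fold, 4.17-fold and 4.29-fold. Tgfb2 had a log2 ratio of 0.08 (interval -0.16 to 0.31), Tgfbr1 of -0.31 (-0.70 to 0.05) and Ltbp4 of -0.70 (-0.94 to -0.47). Against monocyte/macrophage-like cells, 9 members were tested and 6 were higher, 2 were lower (Tgfb1 by 4.76-fold and Tgfbr2 by 2.44-fold) and Tgfbr1 was within 2-fold, where 54.0% of 10068 genes were called, 35.4% higher and 18.5% lower. The higher ones were Tgfb2 (log2 ratio 6.63, interval 6.30 to 6.96), Ltbp4 (6.61), Ltbp1 (5.23), Tgfbr3 (4.82), Ltbp3 (3.90) and Tgfb3 (3.26). The Tgfb3 call, on 8 Schwann-like UMIs, was lost in 3 alternatives, and the Tgfbr2 call when barcodes past more than 1 gate were kept (log2 ratio -0.99). Between Schwann-like and mesenchymal-like cells Tgfb2 thus did not differ beyond counting error, while its co-receptor Tgfbr3 was lower. The mesenchymal marker sum in Schwann-like cells was 4.91% of its mesenchymal-like level, with 0 of 8 markers at 0. With the RNA of other classes subtracted in proportion to their markers, the log2 ratio to mesenchymal-like cells was 0.01 for Tgfb2, -1.98 for Tgfbr2, -2.39 for Tgfbr3, -2.44 for Ltbp1 and -0.82 for Ltbp4. The ratio to monocyte/macrophage-like cells became 7.00 for Tgfb2, 7.34 for Ltbp4 and 5.76 for Ltbp1 under this subtraction, each above the counting interval of the unsubtracted value.

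**Figure D2:**
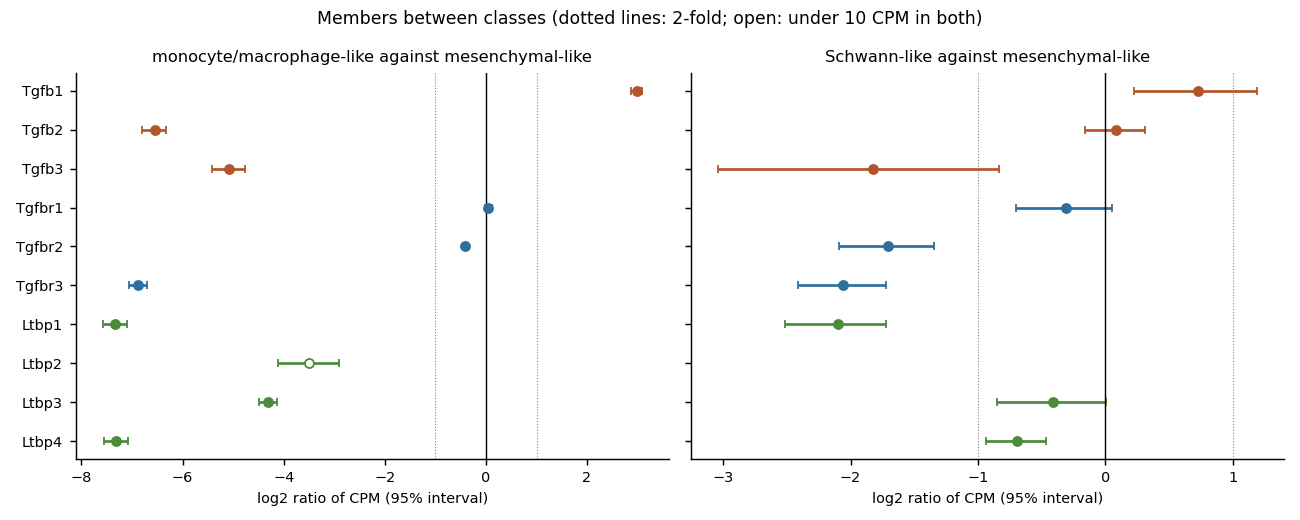
Log2 ratios of CPM for the 10 genes, monocyte/macrophage-like over mesenchymal-like cells on the left and Schwann-like over mesenchymal-like cells on the right, with 95% counting intervals; dotted lines mark 2-fold and the open point is under 10 CPM in both classes. Ltbp2 has no point on the right, as it had no UMI in Schwann-like cells. On the left Tgfb1 alone is to the right of the 2-fold line, and Tgfbr1 and Tgfbr2 lie within it.

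Tenocyte-like cells were compared with mesenchymal-like cells, whose markers they share. Of 10 members tested, 1 was higher (Ltbp2, log2 ratio 1.48, interval 1.04 to 1.93), 1 was lower (Ltbp4, -1.44, interval -1.56 to -1.33) and 8 were within 2-fold, where 20.2% of 9170 genes were called, 8.34% higher and 11.8% lower. The members' share was thus that of all genes, and their values ran in both directions. Tgfb3, Tgfbr3, Tgfbr1 and Ltbp3 had log2 ratios of 0.96, 0.64, 0.61 and 0.59, and Tgfb2, Tgfbr2 and Ltbp1 of -0.88, -0.85 and -0.79. Under a rule that asks for an interval clear of 1.5-fold, 6 members were called, and Tgfb2 or Tgfb3 passed 2-fold in 3 other alternatives. Of the 74 Ltbp2 UMIs in tenocyte-like cells, 43.2% were in 5 cells.

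Further genes of the pathway were taken from 5 lists chosen by function. Dcn, in the list of co-receptors and decoys, is also a mesenchymal marker, and Acta2 and Tagln, in the list of response genes, are smooth muscle markers. List counts stand beside the shares over all genes tested, which were 18.8% higher and 23.6% lower between monocyte/macrophage-like and mesenchymal-like cells. They were 26.2% and 17.3% in Schwann-like, and 8.34% and 11.8% in tenocyte-like against mesenchymal-like cells. Of the genes of activation and cleavage, 13 of 14 were tested between monocyte/macrophage-like and mesenchymal-like cells, of which 3 were higher and 8 lower, with a median log2 ratio of -2.24 against -0.08 over all genes tested. Nrros, which tethers latent TGF-beta 1 on macrophages, was at 183 CPM against 4.05 CPM, and the protease gene Mmp9 at 11.3 against 0.544 CPM. The proteases Bmp1 and Mmp2 stood on the other side, at 1.60 and 2.79 CPM against 257 and 729 CPM. Between Schwann-like and mesenchymal-like cells 4 of 12 were higher, 7 lower and 1 within 2-fold, with a median of -1.74 against 0.40 over all genes tested. The integrin subunit Itgb3 and Lrrc32, which tethers latent TGF-beta at the cell surface, were at 20.3 and 13.1 CPM in mesenchymal-like cells and had no UMI in Schwann-like cells, where 3 counts stand for 4.42 CPM. In Schwann-like cells Itgb8, a subunit of an integrin that releases TGF-beta, was at 517 CPM against 7.12 CPM in mesenchymal-like and 0.733 CPM in monocyte/macrophage-like cells. Its partner subunit Itgav was at 442 CPM in Schwann-like and 150.1 CPM in mesenchymal-like cells.

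All 10 fibrillin and microfibril partners were lower in monocyte/macrophage-like than in mesenchymal-like cells, with a median log2 ratio of -7.73. Fbn1, the main fibrillin, was at 4.62 against 1713 CPM, and Emilin1 had the smallest difference at 8.40 against 46.2 CPM. In Schwann-like cells 9 of the 10 were lower than in mesenchymal-like cells, with a median of -5.26 against 0.40 over all genes tested. Emilin1 was again nearest, at 58.9 against 46.2 CPM (interval of the log2 ratio -0.14 to 0.81). Eln, the gene of elastin, was at 367 CPM in mesenchymal-like cells and had no UMI in Schwann-like cells, where 3 counts stand for 4.42 CPM. In tenocyte-like cells 4 of the 10 were lower than in mesenchymal-like cells, 1 was higher and 5 were within 2-fold, with Fbn1 at 237 CPM and Eln at 33.4 CPM against 1713 and 367 CPM.

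Of the intracellular signaling genes, 7 of 12 were lower in monocyte/macrophage-like than in mesenchymal-like cells, 0 were higher and 5 were within 2-fold, with a median of -1.01, where 23.6% of all genes were lower and 18.8% higher. Smad6, an inhibitory SMAD, was at 2.01 against 17.4 CPM, and Skil, a repressor of SMAD targets, at 218 against 133 CPM. Between tenocyte-like and mesenchymal-like cells all 12 were within 2-fold, where 20.2% of all genes were called. In Schwann-like cells 3 were higher and 4 lower than in mesenchymal-like cells, where 26.2% and 17.3% of all genes were. Smurf1, a ubiquitin ligase acting on SMADs and receptors, was at 225 against 41.3 CPM, and Smad3 at 7.36 against 62.8 CPM on 5 UMIs.

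Of the co-receptors and decoys, 3 of 8 were lower, 0 higher and 5 within 2-fold between monocyte/macrophage-like and mesenchymal-like cells, where 23.6% of all genes were lower and 18.8% higher. Without the marker Dcn, 2 of 7 were lower and 5 were within 2-fold. Among them were Bgn at 6.90 against 1472 CPM and Tgfbrap1 at 23.0 against 11.9 CPM. Cd109, a co-receptor that dampens signaling, was at 141 CPM in Schwann-like cells against 12.9 CPM in mesenchymal-like cells, and in tenocyte-like cells it stood above the latter by a log2 ratio of 2.34. Acvrl1, a type I receptor of endothelium, had 1 UMI in Schwann-like cells and was at 47.9 CPM in mesenchymal-like cells.

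Genes known to respond to TGF-beta were called in both directions. Between monocyte/macrophage-like and mesenchymal-like cells 12 of 14 were lower and 2 higher, with a median of -3.45. Without the markers Acta2 and Tagln, 10 of 12 were lower and 2 higher, with a median of -3.79. The higher ones were Tgfbi, at 353 against 101 CPM, and Cdkn1a, at 434 against 213 CPM. In Schwann-like cells 9 were lower and 2 higher than in mesenchymal-like cells, and 7 and 2 of 12 without these markers. Tnc, a matrix glycoprotein of repairing nerve, was at 3181 against 69.3 CPM there, and Ccn2, a matrix regulator, had no UMI there against 314 CPM. In tenocyte-like cells 7 were higher and 1 lower than in mesenchymal-like cells, with a median of 1.06 against 0.00 over all genes tested. Without Acta2 and Tagln, 5 of 12 were higher, 1 lower and 6 within 2-fold, with a median of 0.63. These smooth muscle markers were the highest, Acta2 at 102 against 10.0 CPM and Tagln at 85.6 against 10.9 CPM. The lower one was Cdkn1a, at 92.8 against 213 CPM.

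Fibroblast subtypes were gated within the mesenchymal-like cells by their own markers. The 4 subtypes compared were Pi16 Dpp4 (280 cells), Dkk2 Bmper Lsamp (153), Smoc2 Cxcl14 Hsd11b1 (99) and Gdf10 Inmt (80). Another 532 mesenchymal-like cells passed more than 1 of these gates and 103 passed none. The Apod Tenm2 Col28a1 gate was passed by 67 mesenchymal-like cells, of which 11 passed no other subtype gate. These 11 were not compared by themselves. Each subtype was compared with all other fibroblasts in a single subtype gate, so the 4 comparisons share cells. Leaving out the sparse Ltbp2, Ltbp1 and Ltbp4 had the largest ratios of highest to lowest subtype. Ltbp1 was at 659 CPM (interval 637 to 682) in Pi16 Dpp4, 254 (235 to 275) in Dkk2 Bmper Lsamp, 149.6 (125 to 178) in Gdf10 Inmt and 129 (112 to 148) in Smoc2 Cxcl14 Hsd11b1 fibroblasts. Ltbp4 was at 931 CPM (868 to 998) in Gdf10 Inmt, 482 (449 to 518) in Smoc2 Cxcl14 Hsd11b1, 311 (289 to 334) in Dkk2 Bmper Lsamp and 164 (153 to 175) in Pi16 Dpp4 fibroblasts. The subtype with the most Ltbp1 thus had the least Ltbp4, and the ratio of highest to lowest was 5.10 for Ltbp1 (interval 4.43 to 5.91) and 5.68 for Ltbp4 (5.15 to 6.27). Each step in the Ltbp4 order exceeded counting error, and in the Ltbp1 order the step between Gdf10 Inmt and Smoc2 Cxcl14 Hsd11b1 did not.

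The shares of cells with a UMI followed the levels for Ltbp4. For Ltbp1 the 2 lowest subtypes changed places, with thinned shares of 27.5% in Gdf10 Inmt and 43.4% in Smoc2 Cxcl14 Hsd11b1 fibroblasts. Of the Ltbp1 UMIs in Gdf10 Inmt fibroblasts, 45.7% were in 5 of the 80 cells. Thinned to 5000 UMIs, Ltbp1 without Ltbp4 was detected in 43.6% of Pi16 Dpp4, 26.1% of Dkk2 Bmper Lsamp, 4.04% of Smoc2 Cxcl14 Hsd11b1 and 2.50% of Gdf10 Inmt fibroblasts. Ltbp4 without Ltbp1 was detected in 4.64%, 34.0%, 49.5% and 68.8% of them. Both were detected in 44.6% (interval 38.7 to 50.7), 29.4% (22.3 to 37.3), 39.4% (29.7 to 49.7) and 25.0%. Cells with both transcripts were thus found in each subtype, and the shares do not show that the genes avoid each other within a cell. Without thinning, both were seen in 79.3%, 57.5%, 61.6% and 46.2%, in cells whose median depth was 17611.5, 15167, 15601 and 9247 UMIs. In monocyte/macrophage-like cells both were detected in 0.0547% thinned and 0.255% unthinned.

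**Figure D3:**
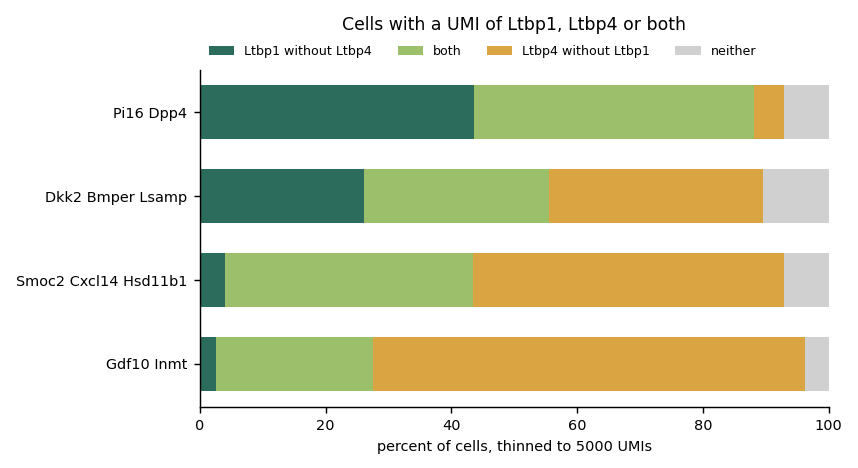
Share of cells of each fibroblast subtype with a UMI of Ltbp1, of Ltbp4, of both or of neither, after each cell was thinned to 5000 UMIs; bars add to 100%. The share with Ltbp1 alone falls from 43.6% in Pi16 Dpp4 to 2.50% in Gdf10 Inmt fibroblasts while the share with Ltbp4 alone goes from 4.64% to 68.8%.

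Receptors also differed between the subtypes. Tgfbr2 was at 481 CPM (interval 462 to 500) in Pi16 Dpp4 and 274 (248 to 301) in Smoc2 Cxcl14 Hsd11b1 fibroblasts, and at 177 and 169 CPM in Dkk2 Bmper Lsamp and Gdf10 Inmt fibroblasts, which did not differ beyond counting error. Tgfbr3 was at 585 CPM (564 to 606) in Pi16 Dpp4 fibroblasts and between 329 and 349 CPM in the other 3. Tgfbr1 was at 133 CPM in Pi16 Dpp4, 116 in Smoc2 Cxcl14 Hsd11b1, 91.3 in Dkk2 Bmper Lsamp and 75.4 in Gdf10 Inmt fibroblasts. Tgfbr2 and Tgfbr3 were thus highest in Pi16 Dpp4 fibroblasts, while Tgfbr1 did not differ beyond counting error between these and Smoc2 Cxcl14 Hsd11b1 fibroblasts (log2 ratio 0.20, interval -0.04 to 0.44). Both signaling receptors were detected together in 30.7% of thinned Pi16 Dpp4 cells (interval 25.4 to 36.5), 24.2% of Smoc2 Cxcl14 Hsd11b1 (16.2 to 33.9), 18.8% of Gdf10 Inmt (10.9 to 29.0) and 17.0% of Dkk2 Bmper Lsamp cells (11.4 to 23.9). Of these intervals, the last alone did not overlap that of Pi16 Dpp4.

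The ratio of highest to lowest subtype was 1.95 for Tgfb1, 1.68 for Tgfb2 and 1.29 for Tgfb3, beside 1.76 for Tgfbr1, 2.84 for Tgfbr2 and 1.77 for Tgfbr3. Tgfb2 was at 254 CPM (interval 234 to 275) in Dkk2 Bmper Lsamp, 208 in Pi16 Dpp4, 191 in Smoc2 Cxcl14 Hsd11b1 and 151 in Gdf10 Inmt fibroblasts, where 66.9% of its 130 UMIs were in 5 of the 80 cells. Tgfb3 lay between 37.8 and 48.7 CPM, and no neighbors in its order differed beyond counting error. Tgfb1 lay between 23.0 CPM in Pi16 Dpp4 and 44.8 CPM in Smoc2 Cxcl14 Hsd11b1 fibroblasts, which stood 1.95-fold apart (interval 1.43 to 2.64). Ltbp3 ran from 72.3 to 131 CPM in the same 2 subtypes. Ltbp2 was at 13.4 CPM in Smoc2 Cxcl14 Hsd11b1 and 0.594 CPM in Pi16 Dpp4 fibroblasts, on 21 and 3 UMIs.

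By the 2-fold rule, Pi16 Dpp4 fibroblasts had 2 members higher (Ltbp1, log2 ratio 1.71, interval 1.60 to 1.81, and Tgfbr2, 1.21, interval 1.10 to 1.31) and 1 lower (Ltbp4, -1.52, interval -1.63 to -1.40) of 9 tested, where 12.8% of 8914 genes were called, 5.32% higher and 7.51% lower. Gdf10 Inmt fibroblasts had 1 higher (Ltbp4, 1.85, interval 1.73 to 1.96) and 2 lower (Ltbp1, -1.61, and Tgfbr2, -1.09) of 9, where 13.8% of 8954 genes were called, 5.17% higher and 8.62% lower. The Tgfbr2 call was lost at a minimum of 10000 UMIs, where Ltbp2 was called higher (log2 ratio 1.75, against 1.14), and under other gates. Smoc2 Cxcl14 Hsd11b1 fibroblasts had 1 higher (Ltbp2, 2.52, interval 1.56 to 3.48) and 1 lower (Ltbp1, -1.91, interval -2.12 to -1.71) of 10, where 12.0% of 8920 genes were called, 5.38% higher and 6.58% lower. Of the 21 Ltbp2 UMIs there, 85.7% were in 5 cells, and thinning brought its log2 ratio to 0.82. These cells also carried tenocyte markers at 7.89% of the tenocyte-like level, against 0.201% to 1.04% in the other 3 subtypes, and the part of that in their Ltbp2 was not tested. Dkk2 Bmper Lsamp fibroblasts had 0 higher and 1 lower (Tgfbr2, -1.17, interval -1.31 to -1.02) of 9, where 7.02% of 8863 genes were called, 3.23% higher and 3.79% lower. That call was lost, at -0.89, when barcodes past more than 1 gate were kept.

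**Figure D4:**
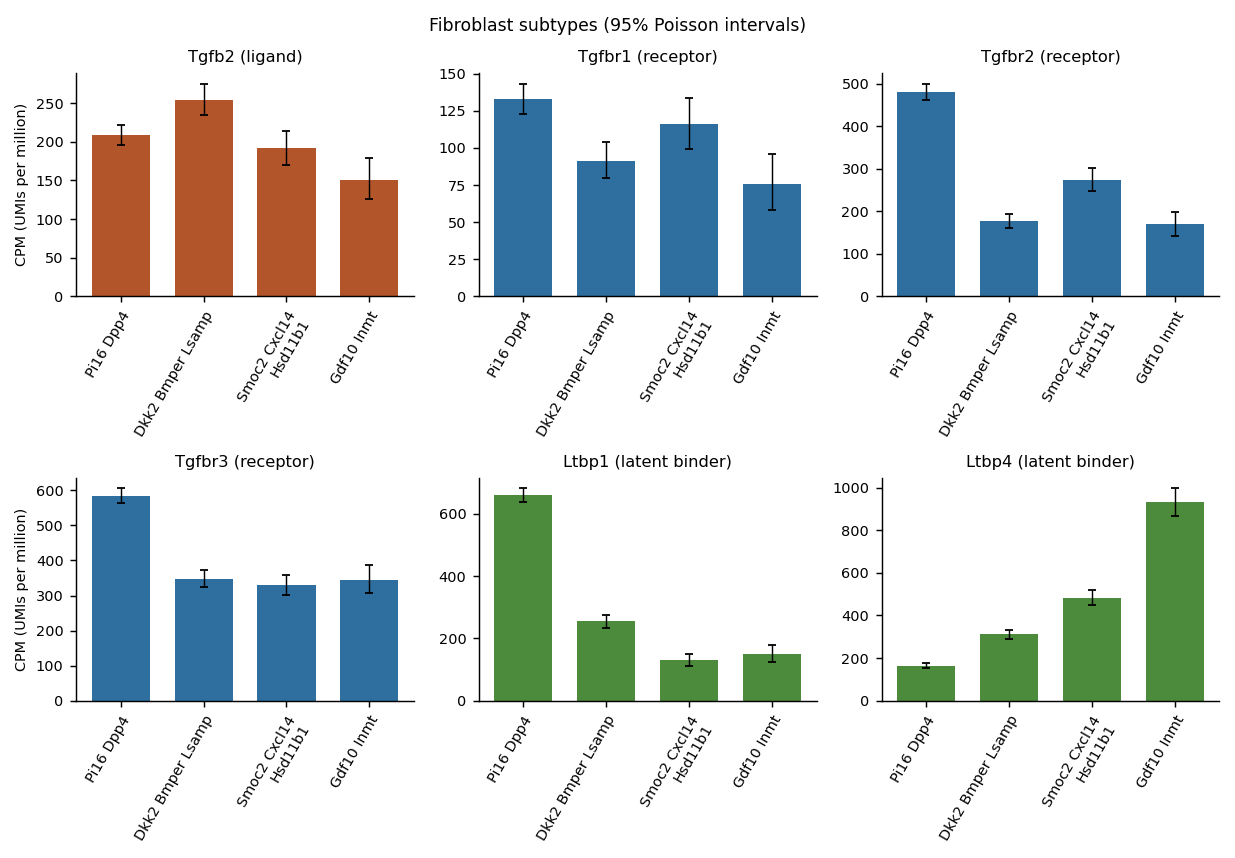
Levels of 6 of the genes in the 4 fibroblast subtypes, 1 panel per gene with its own linear axis from 0 in CPM and 95% Poisson intervals. Ltbp1 is tallest in Pi16 Dpp4 fibroblasts at 659 CPM and Ltbp4 in Gdf10 Inmt fibroblasts at 931 CPM.

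Within the monocyte/macrophage-like cells, 3 members reached 10 CPM in the subtypes: Tgfb1, Tgfbr1 and Tgfbr2. The subtypes compared were Lyve1 Folr2 macrophages (1647 cells), MHC class II high C1q macrophages (1235), Gpnmb Fabp5 macrophages (388) and Ly6c2 Chil3 monocytes (237), and 479 cells passed more than 1 gate and 1499 none. Tgfb1 changed little across them, at 294 CPM (interval 287 to 301) in Lyve1 Folr2, 277 (268 to 286) in MHC class II high C1q, 259 (239.7 to 279) in Ly6c2 Chil3 and 229 (218 to 240.5) in Gpnmb Fabp5 cells. Tgfbr2 differed more than either, at 324 CPM (317 to 332) in Lyve1 Folr2, 177 (169.7 to 184) in MHC class II high C1q, 92.9 (86.0 to 100.1) in Gpnmb Fabp5 and 57.2 (48.4 to 67.2) in Ly6c2 Chil3 cells. Each step in that order exceeded counting error, and the ends stood 5.66-fold apart (interval 4.82 to 6.71). Tgfbr1 had another order, highest in MHC class II high C1q cells (interval 143 to 157 CPM), with 113 in Gpnmb Fabp5, 101 in Lyve1 Folr2 and 81.1 in Ly6c2 Chil3 cells.

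Tgfbr2 was the called member in 3 of the 4 comparisons with the other gated myeloid cells, each of 3 members tested. It was higher in Lyve1 Folr2 macrophages (log2 ratio 1.25, interval 1.19 to 1.31), where 12.9% of 8107 genes were called, 7.77% higher and 5.08% lower. It was lower in Gpnmb Fabp5 macrophages (-1.45, interval -1.57 to -1.34), where 22.7% of 8010 were called, 5.88% higher and 16.8% lower. In Ly6c2 Chil3 monocytes it was lower by 4.16-fold (-2.06, interval -2.30 to -1.82), where 23.7% of 7990 genes were called, 6.35% higher and 17.3% lower. In MHC class II high C1q macrophages 0 of 3 members were called, where 5.19% of 7944 genes were, 2.17% higher and 3.02% lower. There Tgfbr2 had a log2 ratio of -0.49 (-0.55 to -0.42). These 4 comparisons share cells too. Thinned, Tgfbr1 and Tgfbr2 were detected together in 25.7% of Lyve1 Folr2 cells (interval 23.6 to 27.9) and 6.75% of Ly6c2 Chil3 cells (3.91 to 10.7), and 53.7% and 18.1% unthinned at median depths of 12240 and 10694 UMIs. Here too, co-detection beyond the share with each receptor was not tested. Ltbp1 had no UMI in Ly6c2 Chil3 monocytes, where 3 counts would stand for 1.15 CPM.

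**Figure D5:**
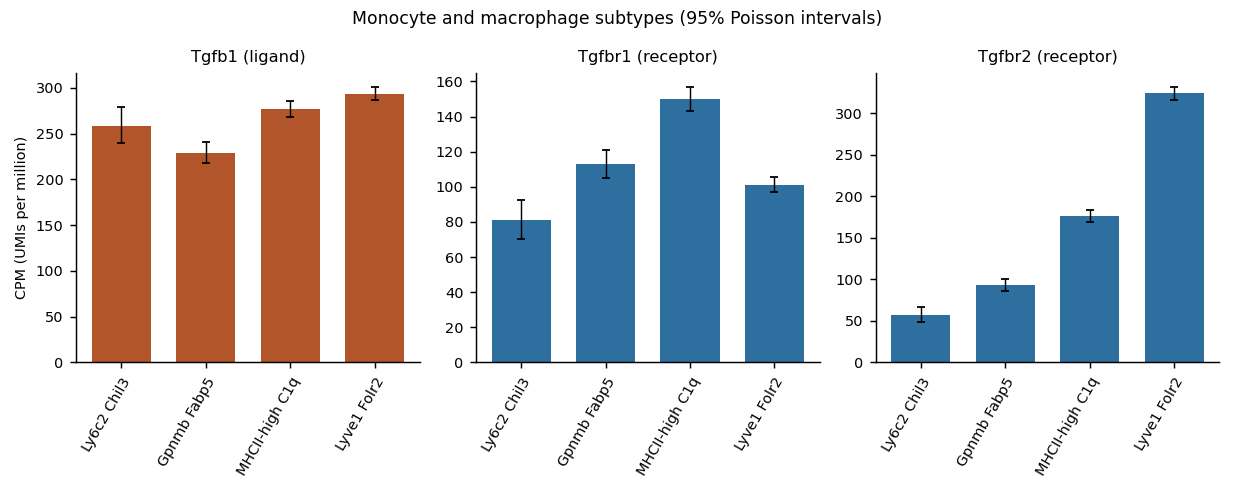
Levels of Tgfb1, Tgfbr1 and Tgfbr2 in the 4 monocyte and macrophage subtypes, 1 panel per gene with its own linear axis from 0 in CPM and 95% Poisson intervals. Tgfb1 stays between 229 and 294 CPM, and Tgfbr2 goes from 57.2 CPM in Ly6c2 Chil3 monocytes to 324 CPM in Lyve1 Folr2 macrophages.

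Across 14 groups that share no cell (6 classes and the 8 subtypes), the members' log2(CPM + 1) values were compared as a description. All groups came from the same library, so free RNA and sorting were shared. Tgfb2 had Pearson's r of 0.96 with Ltbp1, 0.93 with Tgfbr3 and 0.91 with Tgfb3, and of -0.91 with Tgfb1. Tgfbr1 and Tgfbr2 had r of 0.60 with each other and between -0.24 and 0.41 with every ligand and latent binder. Among 12831 other genes, those most like Tgfb1 were Crlf2, Aup1 and Necap2 (r of 0.96 each) and those most like Tgfb2 were Zc3h12b, Pknox2 and Rhobtb3 (0.98 to 0.99). Tgfb3 was most like Podxl2, Khdrbs3 and Fat1 (0.97 to 0.99). Tgfbr3 was most like Mir100hg, Ppic and Mpdz (0.98 to 0.99), Ltbp1 like Pard3, Sspn and Rbms3 (0.98), and Ltbp4 like Pcdh7, Prkd1 and S100a16 (0.98). Ltbp3 was most like Plod2, Zfhx4 and Gas1 (0.97 to 0.98), and the sparse Ltbp2 like Echdc2, Prcd and Pdgfrl (0.95). Tgfbr1 had the weakest likenesses, at most 0.80 with Clcn4, Man1c1 and Gm41496, and Tgfbr2 reached 0.92 with Colgalt2, Map3k2 and 0610010F05Rik.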

How the data were processed

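Raw UMI counts, not normalized, were deposited for the GFP+ library. The authors obtained them with Cell Ranger, 7.1.0 per the labels and 8.0.1 per the file header. The labels name mm10 and the methods both GRCm38 and GRCm39 with EGFP added. The study's steps against doublets and free RNA are not in these counts. Barcodes past gates of more than 1 class were left out in place of a doublet caller, except that tenocyte-like cells also carry mesenchymal markers.

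A class gate asked for a minimum number of its markers and of their UMIs per 10000, for example 5 markers and 16 UMIs for Schwann-like and 5 and 48 for mesenchymal-like cells. Marker genes were fixed first, and the minimums were set after the markers' distributions were seen. The members and lists were chosen with earlier results of these data known. UMIs were summed per class and divided by all its UMIs (CPM). Intervals at 95% were exact: Poisson for levels, Clopper-Pearson for shares, conditional binomial for log2 ratios. They cover only the error of counting UMIs, or cells for shares, and no p-value was computed. A gene was tested, in the sense of being eligible for a call, at 10 CPM or more in either group, and called at 2-fold or more. Floors stand for 3 counts. Genes named beside the members were the 2 highest and 2 lowest of each pathway list in each class comparison, and the 3 most like each member, among genes with 10 CPM in at least 1 group. The interval code was tested on simulated counts. Scripts ran in Python 3.11.15 with scipy 1.17.1, pandas 2.3.3, numpy 2.4.6 and matplotlib 3.10.9. Alternatives were other depth, gene, mitochondrial and gate minimums, kept mixed barcodes, the deepest 5% of a class left out, equal cell weights, thinning, subtraction of other classes' RNA and an interval rule, and 2 added after the data were seen, without barcodes shared with the GFP- library and without gate markers in the pathway lists.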

Additional observations from a re-analysis of the deposited data

How the results depend on the processing

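No paired analysis was possible because each fraction is 1 library. Of 33 calls between groups, 0 changed direction under 11 alternatives. The count of called members in tenocyte-like against mesenchymal-like cells went from 2 to 6 when the interval had to leave out 1.5-fold, and in Dkk2 Bmper Lsamp fibroblasts from 1 to 2. The same rule added Ltbp4 in Smoc2 Cxcl14 Hsd11b1 fibroblasts (0.75) and Tgfbr3 in Pi16 Dpp4 fibroblasts (0.77). Barcodes past more than 1 gate, when kept, took the Dkk2 Bmper Lsamp count to 0. In Smoc2 Cxcl14 Hsd11b1 fibroblasts the count went from 2 to 1 with doubled gates, kept mixed barcodes, equal cell weights or thinning, and the lost call was Ltbp2 each time, at log2 ratios of 2.38, 1.79, 2.17 and 0.82 against 2.52. The Tgfbr2 call in Gdf10 Inmt fibroblasts was lost in 3 alternatives, at log2 ratios of -0.94, -0.96 and -0.85. The Tgfb3 call between Schwann-like and monocyte/macrophage-like cells, on 8 and 84 UMIs, was lost in 3, each time because the gene fell under 10 CPM in both classes. With mixed barcodes kept, Tgfbr2 between these classes moved from -1.29 to -0.99 and Tgfb1 in Schwann-like against mesenchymal-like cells from 0.73 to 1.09. Minimums of 3000 UMIs, and of 500 genes with under 5% mitochondrial counts, changed 0 calls. Of 1157 single log2 ratios recomputed under 10 alternatives, 152 left the counting interval of the main value. Classes of 41 to 73 cells limit the endothelial-like, smooth muscle and pericyte-like and Schwann-like values, and with 1 library the variation between animals is unknown.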

Other observations

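These values belong to barcodes outside the classes compared, or to parts of a class that were not compared by themselves. The 13 cells past the T and NK gate alone had Tgfb1 at 150.5 CPM, Tgfbr2 at 156 CPM and Tgfbr1 at 66.9 CPM. They had 0 UMIs of Tgfb2, Tgfb3 and the 4 latent binders, where each interval reached up to 20.6 CPM. Among monocyte/macrophage-like cells, 55 passed a gate of cycling genes. They had Tgfb1 at 212 CPM and Tgfbr2 at 169 CPM, against 274 and 224 CPM in the other 5430. The 103 mesenchymal-like cells past no subtype gate had Tgfb1 at 80.2 CPM and Ltbp2 at 28.4 CPM, above each of the 4 subtypes compared, whose highest values were 44.8 and 13.4 CPM. The 265 cells past both the Smoc2 Cxcl14 Hsd11b1 and the Dkk2 Bmper Lsamp gate had Ltbp1 at 156 CPM and Ltbp4 at 379 CPM, both between the values of these subtypes. The 378 cells past both the Lyve1 Folr2 and the MHC class II high C1q gate had Tgfb1 at 312 CPM, against 294 and 277 CPM in the cells past a single gate of these.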
